A study of Mus musculus with 4 samples.

Results

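Zfp genes carry the mouse symbol of zinc finger proteins, a large group in which each protein holds repeated units that fold around a zinc ion and touch DNA or RNA. The members described here are the rows of the deposited RNAseq table whose symbol is Zfp followed by a number, without Zfp42, Zfp57, Zfp264 and Zfp352, and whose S129 and CAST mean RPKM sum to at least 1. RPKM is the read count divided by gene length and by the depth of the library. Of 389 such rows in the table of 24026 genes, 328 met this rule. The members were thus selected on their measured level, so levels are given as a description with no test, while the difference between the alleles was not used and was tested.

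F123-ESCs are a male mouse embryonic stem cell line from a cross of S129/Jae and Cast mice, so that autosomes are present as an S129 copy from the mother and a CAST copy from the father. All 4 libraries, replicates 1 to 4, came from untreated cells of this single line, grown on feeder fibroblasts and moved to feeder-free gelatin before harvest. There is no reciprocal cross, so strain and parent of origin cannot be told apart, and nothing in the labels says that the libraries came from separate cultures, so p-values measure the spread between libraries, which may be technical. Reads covering no SNP enter no value. S129 and CAST reads together came to between 34120416 in replicate 4 and 56627973 in replicate 1, and members took 0.778% to 0.923% of them. All 8 markers of embryonic stem cells were above 10 RPKM. Of 11 feeder markers, 3 were above 10 RPKM, led by Col1a2 at 166 RPKM, and Twist1 was listed at 0. Their summed level was 182 to 229 RPKM per library. Of the 9 feeder markers whose allele means sum to at least 1 RPKM, 7 were called with more S129 and 2 with more CAST in the allele test below. Of all autosomal genes, 28.9% and 32.5% were so called. The part of feeder cells in the results was not tested.

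In the classical C2H2 finger, 2 cysteines and 2 histidines hold the zinc ion, and arrays of such fingers read DNA sequence. In many of these proteins a KRAB box precedes the fingers and recruits the corepressor TRIM28 (KAP1), which brings the histone methyltransferase SETDB1 and heterochromatin proteins to the bound site. In embryonic stem cells this system is known for silencing endogenous retroviruses and for protecting imprinted sites. KRAB zinc finger genes lie in clusters, differ strongly between species and strains, and often have close copies. Other Zfp proteins act in transcription, in chromatin complexes or on RNA.

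The coding sequence, from GENCODE M21 on mm10, of 324 members held a C2H2 motif in 316 and a KRAB A box in 194. The median was 12 C2H2 motifs with a KRAB box and 7 without, and the highest count was 36. The remaining 4 members have no annotated coding sequence. The finger units below are the first that lie within a single exon in each gene, shown because they are the feature that joins members of very different roles, and capitals mark the codons of the 2 cysteines and 2 histidines.
Zfp809: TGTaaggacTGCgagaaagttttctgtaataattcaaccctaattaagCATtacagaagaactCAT
Zfp568: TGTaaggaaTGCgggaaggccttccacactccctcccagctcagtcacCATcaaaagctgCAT
Zfp981: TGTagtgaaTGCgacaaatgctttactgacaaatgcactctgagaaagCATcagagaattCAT
Zfp979: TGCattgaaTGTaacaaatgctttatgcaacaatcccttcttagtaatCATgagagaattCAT
Zfp462: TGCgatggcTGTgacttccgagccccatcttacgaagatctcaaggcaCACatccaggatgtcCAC
They lie at chr9:22238677-22238742 (plus strand), chr7:30022724-30022786 (plus strand), chr4:146537340-146537402 (plus strand), chr4:147613330-147613392 (minus strand) and chr4:55007578-55007643 (plus strand), all in coding exons. Zfp809 and Zfp568 are KRAB silencers, Zfp981 and Zfp979 are the KRAB members with large allele differences in opposite directions, and Zfp462 has no KRAB box and had the highest deposited level.

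Most members were expressed at low to moderate levels. The level, here the mean of both alleles over the libraries, had a median of 5.08 RPKM over the members, against 7.79 RPKM over the 13341 genes of the table with the same minimum. It ranged from 0.532 to 248 RPKM, and the middle of the members lay between quartiles of 2.43 and 11.1 RPKM. Only 34.5% of members were above the median of the genes tested. The spread was small: the median coefficient of variation over libraries was 9.76% for the members and 9.66% for all genes tested. Replicate 4 was the lowest library for 72.9% of members and 53.5% of all genes tested. The median level of the members was 5.18, 5.40, 5.45 and 4.57 RPKM in replicates 1 to 4.

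The highest deposited levels were those of Zfp462, Zfp260, Zfp229, Zfp444, Zfp428, Zfp445, Zfp407 and Zfp512. Zfp462, a large protein that works with heterochromatin factors in embryonic stem cells, was at 219, 247, 276 and 251 RPKM in replicates 1 to 4. Zfp260 was at 257, 258, 256 and 191 RPKM, so that replicate 4 stood below the other 3. Zfp428 was even, at 110, 104, 106 and 108 RPKM. The gene length behind these values matters. The reads recovered from the RPKM of Zfp462 required a length of 363 bp, whereas its exons together cover 10702 bp. Per exon-union length, the same reads gave 8.42 RPKM for Zfp462, 15.1 RPKM for Zfp260, 21.7 RPKM for Zfp229, 7.53 RPKM for Zfp444 and 85.5 RPKM for Zfp428. Zfp407 and Zfp512, deposited at 92.8 and 83.9 RPKM, came to 3.31 and 6.09 RPKM. The exon union was at least 2 times the recovered length in 86 of 328 members, and only 1 of the 8 highest members was the same under both lengths. With exon-union lengths the median of the members fell to 2.99 RPKM. On the autosomes it fell from 5.22 to 3.01 RPKM for members and from 7.94 to 4.47 RPKM for all genes tested. The highest members were then Zfp428, Zfp568 at 54.0 RPKM and Zfp830 at 40.1 RPKM. Levels below are the deposited ones unless the exon union is named, and their order between genes depends on the length.

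**Figure D1:**
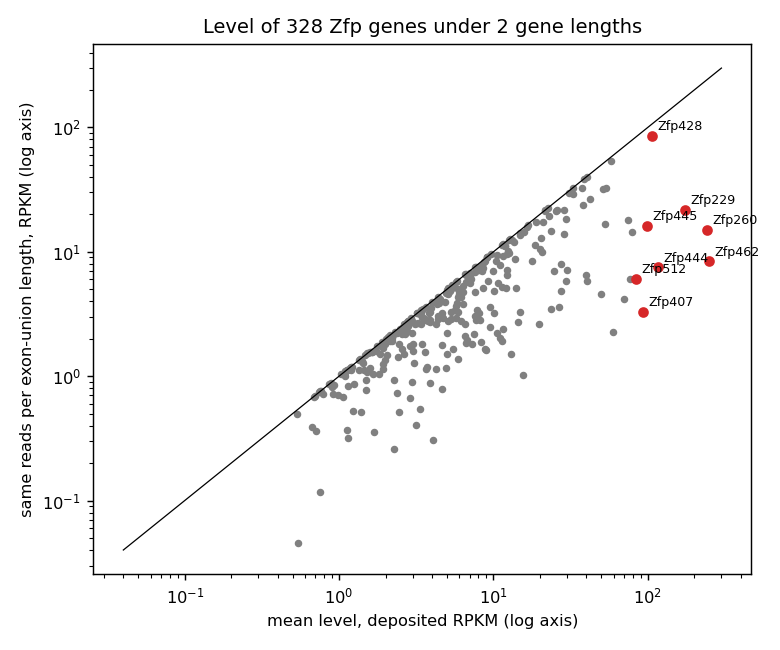
Each point is 1 of 328 members. The horizontal axis is the deposited mean level and the vertical axis the level of the same reads per exon-union length, both in RPKM on log axes, with the line of equality. Red points are the 8 highest deposited levels: Zfp428 stays near the line at 85.5 RPKM, while Zfp462 drops from 248 to 8.42 RPKM.

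At the threshold, Zfp572, Zfp385b and Zfp30 were just inside, at 0.532, 0.540 and 0.671 RPKM. Just outside were Zfp773, Zfp503 and Zfp865, at 0.472, 0.460 and 0.439 RPKM. Of the 58 rows below the threshold, 25 were listed at 0 in all 8 columns. For a gene without a SNP in its exons, this says nothing of its expression. Nor does it where reads of near-identical copies are lost in mapping, and sequence shared by such rows is given below. Only 9 members had an allele with a mean under 0.5 RPKM, of which 5 were on the X chromosome, so few members passed through a single allele.

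Members known from embryonic stem cells and development covered a wide range. Of 12 genes listed, 9 were members, with Zfp322a, Zfp521 and Zfp503 below the threshold. Zfp110 was at 37.5 ± 3.87 RPKM (SD, n = 4), Zfp706 at 32.9 ± 0.809 RPKM and Zfp296, a gene of pluripotent cells, at 28.7 ± 1.97 RPKM. Zfp281, a transcription factor linked to the exit from pluripotency, was at 11.4 ± 0.871 RPKM. Per exon-union length these levels were 32.7, 29.2, 21.6 and 11.4 RPKM, so their order was kept. All 12 listed partners of chromatin complexes were members. They ranged from Zfp608 at 0.986 RPKM to Zfp462, with a median of 5.41 RPKM. Zfp518a, a partner of histone methyltransferase complexes, was at 21.5 RPKM under both lengths.

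Of 10 listed KRAB silencers, 9 were members. Zfp600 was listed at 0, and the share of its sequence found in other genes is given below. Zfp809, which binds the primer binding site of murine leukaemia viruses, was at 52.7, 54.9, 54.7 and 51.4 RPKM in the 4 libraries. Zfp568, known for repressing a placental transcript of Igf2, was at 56.7, 59.7, 61.8 and 53.1 RPKM. Zfp445, a protector of imprinted sites, was deposited at 98.6 RPKM but came to 16.2 RPKM per exon union. Per exon union, Zfp568 came to 54.0 RPKM and Zfp809 to 32.5 RPKM. The other members of the list were deposited at between 2.21 RPKM (Zfp708 and Zfp738) and 23.5 RPKM (Zfp961, 14.6 RPKM per exon union). Of 11 listed genes that act on RNA, ribosomes or mitosis, 10 were members, and Zfp207 had a single read in the whole table. Zfp830 and Zfp593, the latter a ribosome assembly factor, were at 40.1 and 30.9 RPKM, and at 40.1 and 29.5 RPKM per exon union. Zfp36, which destabilises mRNAs, was at 6.002 RPKM, and Zfp598, a sensor of collided ribosomes, at 6.31 RPKM.

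Levels of the cofactors that KRAB proteins use were compared under both lengths. Trim28 was at 1310 ± 123.2 RPKM (SD, n = 4), Smarcad1 at 450 ± 43.7 RPKM, Cbx3 at 201 ± 31.2 RPKM and Setdb1 at 19.5 ± 1.45 RPKM. Per exon union these were 268, 20.4, 36.2 and 16.1 RPKM, so that Smarcad1 was then below Cbx3. Of 18 listed cofactors, 17 had at least the same minimum level, and Sumo2 did not. Between the alleles 15 of these 17 passed the test, where 62.7% of all genes did, 7 with more S129 and 8 with more CAST. Without the pairing of the alleles within a library, 6 of 17 passed, and the share of all genes under that setting is not given here. Atrx, on the X chromosome, is counted among the 7. Setdb1 differed most on an autosome, at 12.04 ± 0.801 RPKM from S129 and 26.9 ± 2.17 RPKM from CAST (log2 difference -1.15 ± 0.04 SE, adjusted p = 4.37e-05). Setdb1 lies on chromosome 3, where the median difference over all genes tested was -0.74.

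Whether the S129 and CAST alleles of a member gave unequal amounts of RNA was tested within each library. The difference is log2(S129 RPKM + 0.1) minus log2(CAST RPKM + 0.1), and a member was called at a Benjamini-Hochberg adjusted p under 0.05 in limma over all 13341 genes. Of all 13341 genes 62.7% were called. On the autosomes 193 of 323 members were called, 59.8%, where 61.4% of all 12869 autosomal genes were. More S129 was found in 91 members, against a background of 28.9% of genes, and more CAST in 102, against 32.5%. The median size of the difference was 0.30 for members and 0.29 for all autosomal genes on the log2 scale. Members at least 2-fold apart and called were 25, or 7.74%, where 11.9% of all genes were. Of these 25, 14 had more S129, against 6.29% of genes, and 11 more CAST, against 5.63%. With a pseudocount of 1 the count was 15 in place of 25. Without members that share 10% or more of their 50-mers with other genes it was 12 of 255. The share of all genes under either setting is not given here. In 224 members all 4 libraries had the same direction, where 71% of genes did. Over all reads of members, S129 took between 50.7% and 50.8% in each library. The total of S129 reads was also above that of CAST reads in each library, at 28772352 against 27855621 in replicate 1.

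The largest differences on the autosomes are given gene by gene, although some of these genes are neighbours in a cluster. Zfp981, a KRAB member on chromosome 4, was at 33.2, 30.7, 31.1 and 27.1 RPKM from S129 and at 2.45, 1.90, 2.23 and 2.50 RPKM from CAST in replicates 1 to 4. The 2 sets were far apart in every library, and the log2 difference was 3.70 ± 0.10 (SE, adjusted p = 2.74e-05). Zfp28 on chromosome 7 was at 7.21, 8.66, 8.51 and 6.96 RPKM from S129 and at 0.928, 1.01, 0.780 and 0.794 RPKM from CAST. Its difference was 3.02 ± 0.08 (adjusted p = 3.15e-05), with no overlap of the alleles. Zfp607b was at 11.99, 12.3, 13.2 and 11.04 RPKM from S129 and at 1.99, 2.41, 2.34 and 1.97 RPKM from CAST, a difference of 2.43 ± 0.05 (adjusted p = 1.11e-05). Zfp59 differed by 1.95. Zfp783, annotated as a transcribed pseudogene, differed by 2.54, but it met the level rule only through its S129 allele, at 1.89 RPKM against 0.238 RPKM from CAST. Zfp553 and Zfp771, without a KRAB box and neighbours on chromosome 7, differed by 1.59 and 1.36. Zfp972 differed by 1.46, but by 0.95 without replicate 4, and its call was lost without replicate 1, 2 or 3 (adjusted p of 0.0613, 0.106 and 0.0742). Zfp783 overlaps Zfp956 on the same strand, so reads of the overlap cannot be told apart.

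In the other direction, Zfp979, a KRAB member on chromosome 4, was at 15.4, 16.4, 14.8 and 12.2 RPKM from S129 and at 62.8, 65.7, 61.4 and 55.1 RPKM from CAST. Every CAST value was above every S129 value, and the difference was -2.06 ± 0.04 (adjusted p = 1.20e-05). Zfp960 was at 0.560, 0.453, 0.504 and 0.388 RPKM from S129 and at 2.77, 2.96, 2.43 and 2.11 RPKM from CAST, a difference of -2.21 ± 0.08 (adjusted p = 6.29e-05). The alleles of Zfp960 did not overlap either, but it met the level rule only through its CAST allele. Its means were 2.57 RPKM from CAST and 0.476 RPKM from S129. Zfp872 differed by -1.95, Zfp112 by -1.67, Zfp455 and Zfp934 by -1.60, Zfp970 by -1.49 and Zfp429, a KRAB silencer, by -1.31.

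**Figure D2:**
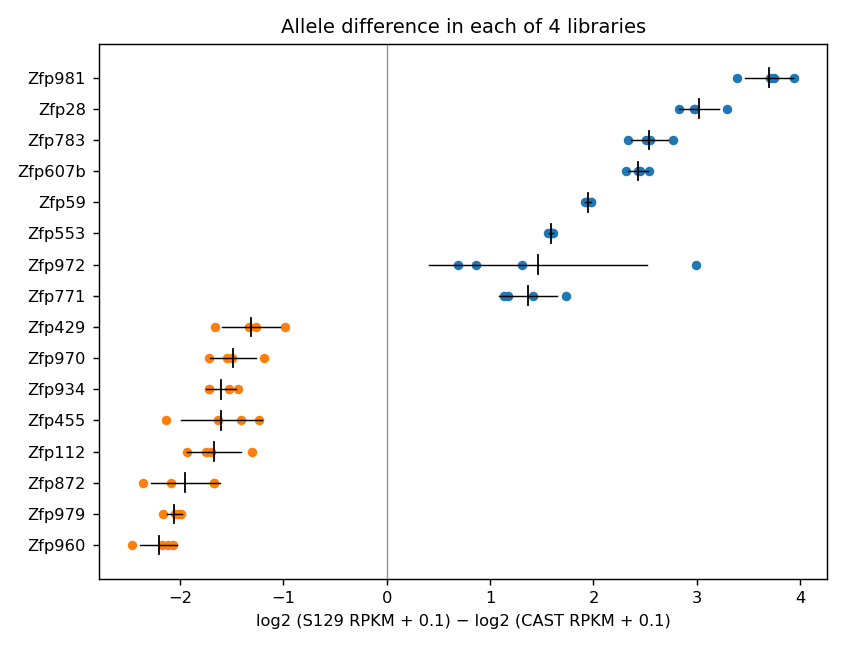
Allele difference of the 8 autosomal members with the largest difference in each direction. Points are the 4 libraries, vertical ticks the mean and horizontal bars ± 1 SD, on the log2 scale; blue points lie to the S129 side and orange points to the CAST side. All 16 members were chosen among those whose 4 libraries are on the same side of 0.

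Sequence shared with other genes bears on these values, since reads of near-identical copies can be split or lost in mapping. Of the 324 members with a coding sequence, 64 shared at least 10% of their 50-mers with transcripts of other genes, 55 of them with a KRAB box. Among the 24 members with a coding sequence that were at least 2-fold apart, 12 did. Zfp960 shared 82.0%, closest to Zfp97, Zfp59 shared 65.2%, Zfp981 35.6%, Zfp979 29.5% and Zfp28 29.0%, so that their differences are uncertain. Zfp972 also shared at least 10%. Zfp934 was the closest gene to Zfp808, holding 36.0% of the 50-mers of Zfp808. The shares of Zfp607b, Zfp934, Zfp970, Zfp455 and Zfp429 are not given here. Zfp553, Zfp771, Zfp872 and Zfp112 shared none. Without the members that share 10% or more, 151 of 255 were called, 59.2%. Below the threshold, 57 rows have a coding sequence, and 23 of these shared at least 10%. Among rows listed at 0 in all columns, Zfp781, Zfp965, Zfp966, Zfp967, Zfp968 and Zfp973 shared 100%, Zfp987 99.7%, Zfp600 82.0% and Zfp97 77.9%. Zfp322a, Zfp688, Zfp689, Zfp711 and Zfp957, also listed at 0, shared none. Zfp616 and Zfp735 shared 0.240% and 0.697%. Whether shared sequence accounts for these values of 0 was not tested.

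Promoters of 274 members were found in RefSeq (GRCm38.p6; 250 bases before to 50 after the start). The CpG count, the number of CG letters in these 300 bases, had a median of 15 over members, 8 over the rows below the threshold and 20 over all genes tested. Fewer than 10 were found in 29.9% of the members' promoters, in 19.6% of those of all genes tested and in 56.1% of all 27025 promoters. Members with a KRAB box had a median of 10.5 and members without it 21. The promoters of Zfp981, Zfp979 and Zfp28 are shown because these members had large differences between the alleles. Capitals mark CG.
Zfp981: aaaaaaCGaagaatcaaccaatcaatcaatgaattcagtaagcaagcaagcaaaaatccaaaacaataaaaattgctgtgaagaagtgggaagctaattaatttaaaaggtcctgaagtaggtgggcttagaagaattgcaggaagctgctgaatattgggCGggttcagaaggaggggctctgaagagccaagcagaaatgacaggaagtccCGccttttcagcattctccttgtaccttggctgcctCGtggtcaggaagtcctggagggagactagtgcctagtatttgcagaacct
Zfp979: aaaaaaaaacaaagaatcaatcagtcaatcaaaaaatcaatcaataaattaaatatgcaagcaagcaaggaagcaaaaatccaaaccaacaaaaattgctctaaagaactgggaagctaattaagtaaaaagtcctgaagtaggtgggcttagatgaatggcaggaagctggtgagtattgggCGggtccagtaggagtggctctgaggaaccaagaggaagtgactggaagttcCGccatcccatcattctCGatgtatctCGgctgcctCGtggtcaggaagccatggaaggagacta
Zfp28: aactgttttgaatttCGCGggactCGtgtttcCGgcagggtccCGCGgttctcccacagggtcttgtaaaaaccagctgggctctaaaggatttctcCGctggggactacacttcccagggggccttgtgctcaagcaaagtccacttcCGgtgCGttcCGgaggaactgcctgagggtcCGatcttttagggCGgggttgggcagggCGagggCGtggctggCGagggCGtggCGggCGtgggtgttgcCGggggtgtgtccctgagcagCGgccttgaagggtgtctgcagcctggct
They lie at chr4:146514670-146514969 (plus strand), chr4:147642459-147642758 (minus strand) and chr7:6383068-6383367 (plus strand). Zfp981 and Zfp979 had 4 and 5 CG and Zfp28 had 20. In a global alignment of 323 columns, gaps included, 240 of 277 aligned bases of Zfp981 and Zfp979 were identical, although their alleles differed in opposite directions. The window of Zfp981 lies inside its GENCODE gene, which starts at chr4:146502027 on the same strand. These are letters of the reference genome, and the S129 and CAST sequences were not analysed here.

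The KRAB box and the size of the difference were compared as a description. Of 193 autosomal members with a KRAB box, 125 were called, 64.8%, with a median size of 0.33. Of 126 without it, 67 were called, 53.2%, with a median size of 0.23. Over all autosomal genes 61.4% were called, with a median size of 0.29. Of the 25 members at least 2-fold apart, 20 had a KRAB box. These were 10.4% of the autosomal members with a KRAB box, where 11.9% of all autosomal genes were 2-fold apart and called. For autosomal members without a KRAB box the share was 3.17%. Members with a KRAB box had fewer reads, with a median of 2697 against 3876. After leaving out members that share 10% or more of their 50-mers, the median sizes were 0.32 and 0.24, and 8 of 138 against 4 of 117 were at least 2-fold apart. The difference between these groups was not tested, since genes are not replicates.

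**Figure D3:**
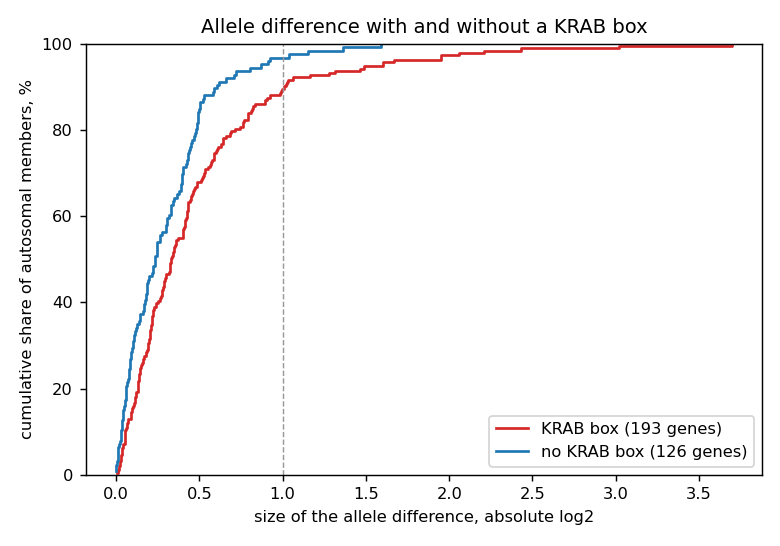
Cumulative share of autosomal members, in %, by the absolute log2 difference between the alleles, for 193 members with a KRAB box (red) and 126 without (blue). The dashed line marks a 2-fold difference, which 20 members with a KRAB box and 4 without passed in a call. Of all autosomal genes 11.9% did.

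Members lie close together. Chromosomes 7, 13 and 17 held 160 members, 48.8%, where they held 16.6% of all genes tested. Of the members, 167 lay in 28 clusters, in which each Zfp row starts within 200 kb of the next and there are at least 3 rows. A KRAB box was found in 142 of these, and 73.2% of the members with a KRAB box lay in clusters against 18.5% of those without.

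The largest cluster, chr13:67038596-67827002, held 23 rows, all members and all with a KRAB box. Of these, 11 were called, and all 11 had more CAST, where 61.4% of autosomal genes were called and 32.5% had more CAST. At an unadjusted p under 0.05 in limma, 0 members of this cluster had more S129. Zfp455 and Zfp429 differed by -1.60 and -1.31, Zfp493 by -1.03, Zfp738 by -0.81, Zfp759 by -0.61, Zfp85 and Zfp712 by -0.51 and Zfp65 by -0.41. The call of Zfp712 was lost without replicate 1 or replicate 4 (adjusted p = 0.0661 and 0.0664), and with the local median taken out (adjusted p = 0.0658). The median of the cluster was -0.28. The neighbourhood of its members, other tested genes within 5 Mb, was at -0.16, but it includes the other members of the cluster. Over all genes tested on chromosome 13 the median was -0.056. In this cluster 16 members shared at least 10% of their 50-mers with other genes. The cluster chr17:21383748-22456689 held 18 members, all with a KRAB box, of which 5 were called with more S129 and 7 with more CAST. Zfp995 and Zfp677 differed by 1.02 and 0.89, and Zfp52 and Zfp942 by -0.75 and -0.45. The cluster chr7:29768552-30169750 held 15 members, of which 5 were called with more S129 and 9 with more CAST. Zfp30, Zfp383, Zfp566 and Zfp14 differed by 0.98, 0.66, 0.64 and 0.64, whereas Zfp74, Zfp27, Zfp568 and Zfp382 differed by -0.91, -0.79, -0.52 and -0.47. Zfp30 met the level rule with a CAST mean under 0.5 RPKM, at 0.417 RPKM against 0.925 RPKM from S129. The call of Zfp383 was lost without replicate 1 (adjusted p = 0.0502). In this last cluster only 1 member shared 10% or more of its 50-mers.

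**Figure D4:**
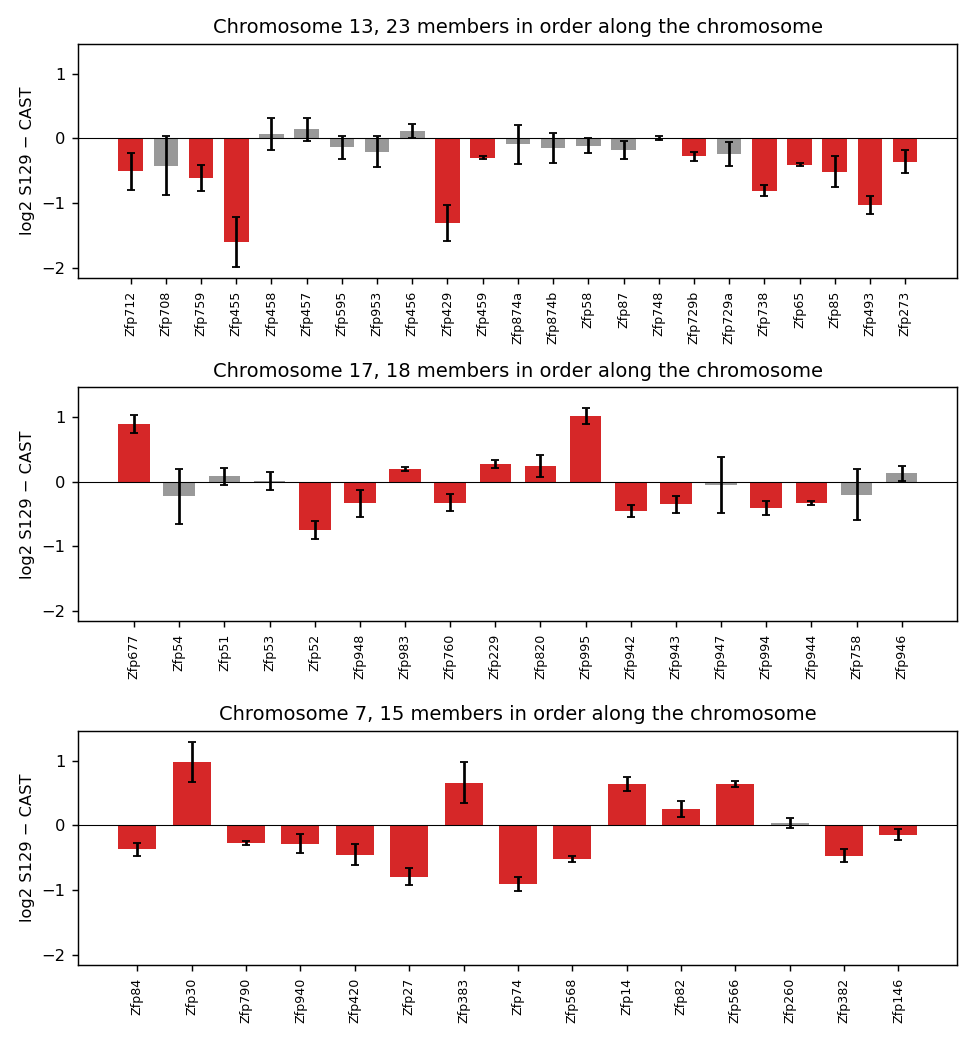
Allele difference of each member in the 3 largest clusters, in order along the chromosome. Bars are means of 4 libraries on the log2 scale with ± 1 SD, red where the member was called and grey where it was not. In the chromosome 13 cluster all 11 red bars point to CAST, while the chromosome 17 and 7 clusters hold red bars to both sides.

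Neighbouring members were compared next. Over 107 pairs of adjacent autosomal members that start within 50 kb of each other, the differences, taken from the median of tested genes within 5 Mb, had a Pearson r of 0.15 and a Spearman rho of 0.15, and 53.3% had the same sign. These pairs share libraries and some share a gene, and the values are given as a description. Some chromosomes had a shift over all genes tested. Zfp148 on chromosome 16 differed by 1.15 where its neighbourhood was at 0.83, and Zfp687 by -0.91 where it was at -0.85. Relative to the neighbourhood, Zfp687 was no longer called (adjusted p = 0.229). With the local median taken out, 190 of 321 members were called, where 56.2% of genes were. Among autosomal members, Zfp981, Zfp28, Zfp607b, Zfp783 and Zfp59 then stood farthest to the S129 side, at 3.81, 3.04, 2.48, 2.38 and 2.00. Of the autosomal members, Zfp960, Zfp872, Zfp979, Zfp112 and Zfp934 stood farthest to the CAST side, at -2.21, -2.04, -1.92, -1.67 and -1.55.

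The role lists held both small and large differences, and their calls are read against the 28.9% of autosomal genes with more S129 and the 32.5% with more CAST. Of the 9 members of the developmental list, 2 were called with more S129 and 5 with more CAST. Zfp148 differed by 1.15, Zfp296 by 0.48, Zfp706 by -0.50, Zfp423 by -0.42 and Zfp281 by -0.26. Zfp706 shared 92.2% of its 50-mers with other genes, and 68.2% with the closest of them, Gm10193. Of the 12 chromatin partners, 3 had more S129 and 4 more CAST. Zfp516 and Zfp608 differed by 0.80 and 0.66, and Zfp687, Zfp644 and Zfp462 by -0.91, -0.35 and -0.30. Of the 9 KRAB silencers, 1 had more S129 and 5 more CAST. The former was Zfp809 at 0.12 (adjusted p = 0.0263), and the latter included Zfp429 at -1.31, Zfp738 at -0.81, Zfp568 at -0.52 and Zfp932 at -0.35, of which Zfp932 was not called without replicate 3 (adjusted p = 0.0535). The call of Zfp809 was lost when any library was left out, with adjusted p of 0.0594 to 0.0999. It was also lost with the local median taken out (0.039, adjusted p = 0.433). The same held without the pairing (adjusted p = 0.176) and with no filter on low values (adjusted p = 0.0742). Zfp429 and Zfp738 lie in the chromosome 13 cluster described above, so they are not separate from its calls. Of the 10 members acting on RNA, ribosomes or mitosis, 0 had more S129 and 3 had more CAST in limma, and at an unadjusted p under 0.05 Zfp346 alone (1 member) had more S129. Zfp346 was called, at 0.38 to 0.55, with a pseudocount of 1, without the pairing, with a variance trend, without replicate 4 and with undivided reads (adjusted p from 0.00269 to 0.0458), and Zfp385a with undivided reads (adjusted p = 0.0384). The 3 were Zfp593 at -0.87, Zfp36 at -0.62 and Zfp598 at -0.42.

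On the X chromosome all 5 members were called with more S129, where 99.4% of all 467 genes tested there were; a male cell has only the maternal X. Zfp182, Zfp185, Zfp280c, Zfp275 and Zfp449 together had 10431 S129 reads and 7 CAST reads, a CAST share of 0.0671% (95% exact binomial interval 0.0270% to 0.138%). Zfp275 had 1441 S129 reads and 0 CAST reads, which allows a share of up to 0.208%, and Zfp449 had 800 and 0, which allows up to 0.375%. Intervals and limits cover counting error only.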

How the data were processed

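The 4 untreated F123-ESC libraries were used. The authors trimmed reads (Trimmomatic 0.40, per the submitters' processing notes), aligned them with STAR to mm10 masked at SNPs, split them by SNPsplit and deposited RPKM per gene and allele. The counting program and annotation are not given in the sources used here. The deposited average RPKM and log10 columns were not used. The first S129 column, whose number is written with a minus sign, was read as replicate 1.

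Totals, lengths and whole reads were recovered from the RPKM steps, within 0.02 reads, for 99.5% of genes above 0. Lengths and sequences came from GENCODE M21 (mm10). KRAB boxes were found with a pyhmmer 0.12.3 profile at an E-value under 1e-05. Alleles were compared with limma 3.58.1 (R 4.3.3) on within-library differences, with a pseudocount of 0.1, which understates differences of low values. S129 and CAST values were paired because each pair was read, by the column number, as the same library. Deviations of columns of the same number correlated at 0.105 to 0.195, and those of different numbers at -0.155 to 0.140. These ranges overlap, and the lowest same-number value was that of replicate 1, so the correlations do not settle the pairing. Scripts were tested on simulated data. Members and lists were chosen with earlier results of these data known. Named genes are those of the role lists, the 8 highest levels, the 8 largest called autosomal differences in each direction with at least 100 reads, X members, the 3 nearest either side of the threshold, the 8 largest called differences in each of the 3 largest clusters, and the 5 autosomal members farthest from their neighbourhood in each direction. Other genes were named after their values were seen. The 8 largest autosomal differences in each direction were drawn only from members with the same direction in 4 of 4 libraries.

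Alternatives were another pseudocount, no or a stricter filter, no replicate block, centring, a variance trend and leaving out each library; exon-union lengths, undivided reads and members with few shared 50-mers were added after seeing the data.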

Additional observations from a re-analysis of the deposited data

Results flagged for a closer look

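Among 171 sets of 4 libraries examined by Dixon's criterion (88 levels and 83 allele differences of named members), 6 had a library far from the other 3, where chance flags about 1 in 20, or 8.55 sets. In 4 of the 6 that library was replicate 4, the shallowest. Its level was 191 RPKM for Zfp260 against 256 to 258 RPKM in the others, 0.742 RPKM for Zfp455 against 1.24 to 1.28 RPKM, 4.02 RPKM for Zfp182 against 5.34 to 5.55 RPKM, and 0.401 RPKM for Zfp30 against 0.749 to 0.780 RPKM. The allele difference of Zfp462 was -0.37 in replicate 1 against -0.28 to -0.27 in the others, and that of Zfp14 was 0.48 in replicate 2 against 0.68 to 0.71.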

How the results depend on the processing

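Of 64 recomputed counts and medians, 60 stayed close to the value reported. For the counts below, the share of all genes under the same alternative is not given here. With a pseudocount of 1, 15 autosomal members were at least 2-fold apart and called in place of 25, and without members sharing 10% or more of their 50-mers, 12 were. Exon-union lengths lowered the median level to 2.99 RPKM. Without the pairing of the alleles within a library (no replicate block), 67 members had more S129, 82 more CAST, and 6 of 17 cofactors were called in place of 15. With undivided reads the split of calls turned, from 91 S129 and 102 CAST to 102 and 90. The S129 total was above the CAST total in each library, and undivided reads keep that excess in every gene. Leaving out each library gave 71 to 88 members with more S129, 85 to 97 with more CAST, 23 to 24 at least 2-fold apart, 13 to 14 cofactors called, and a median level of 4.99 to 5.34 RPKM. Of 1069 recomputed allele differences of 83 named members, 1000 kept their direction and side of the threshold, 41 lost a call, 9 gained one and 19 changed sign; the cause was not tested. All changes of sign were in members that were not called, with values near 0. With the local median taken out they were Zfp143 (0.0088), Zfp335 (0.050) and Zfp428 (0.015), and with the autosomal median taken out Zfp819 (0.0066) and Zfp428 (0.021). With undivided reads they were Zfp518a (0.013), Zfp819 (0.038) and Zfp428 (0.053). With each library left out in turn the differences ranged from -0.017 to 0.029 for Zfp592, -0.066 to 0.13 for Zfp827, -0.047 to 0.10 for Zfp609, -0.035 to 0.0065 for Zfp819, -0.036 to 0.061 for Zfp106, -0.0097 to 0.049 for Zfp622, -0.0078 to 0.027 for Zfp91 and -0.0065 to 0.0033 for Zfp428. Calls lost without a library were those of Zfp809 (any library), Zfp518b, Zfp445, Zfp948 and Zfp972 (replicate 1, 2 or 3), Zfp512 (2 or 3), Zfp712 (1 or 4), Zfp932 (3) and Zfp383 (1). Of 792 recomputed levels, 609 moved by less than the SD between libraries. Read depth limits the lowest members: 2 had fewer than 100 reads over all columns, and the lowest had 69.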
